A study of Mus musculus with 6 samples.

Results

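The fibroblast growth factor (FGF) genes described here are 4 receptor genes (Fgfr1, Fgfr2, Fgfr3 and Fgfrl1), 5 genes of the ligand family (Fgf1, Fgf2, Fgf9, Fgf12 and Fgf13) and Frs2, which encodes the docking protein of the receptors. The members were listed by gene symbol, and every array probe annotated with such a symbol was read out. That gave 17 of the 25697 probes, for 9 of the 10 genes. Frs2 had no probe under its symbol and was not analysed here. Lens RNA came from 18-week-old C57BL/6J mice, 3 wild type and 3 homozygous for the Fgf9 Y162C allele, a substitution at position 162 of the FGF9 protein. All 6 mice shared strain and age, and each mouse was measured on 1 Illumina array. The labels give 1 female and 2 males among the wild types and 2 females and 1 male among the homozygotes. The allele is carried by the whole animal and the RNA is from the tissue as dissected, so levels are averages over all cells present, and fewer cells of a type cannot be told apart from less RNA per cell.

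FGFs are secreted proteins that bind receptor tyrosine kinases together with heparan sulphate chains on the cell surface. The activated receptor phosphorylates FRS2, which recruits adaptors and starts the RAS to ERK and the PI3 kinase cascades. In the lens, epithelial cells near the equator leave the cell cycle and elongate into fibre cells under FGF signals from the ocular fluids, and Fgfr1, Fgfr2 and Fgfr3 have overlapping roles in that step. FGF9 is made by the neural retina of the mouse embryo, while FGF12 and FGF13 belong to the FGF homologous factors, which stay inside the cell and bind voltage-gated sodium channels.

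Depth on an array is its signal over background. Mean signal was 191 to 200.4 in the wild type and 161.6 to 165.7 in the homozygotes, and a probe counted as detected where its detection p-value, a rank among the negative control beads, was under 0.05. The wild-type arrays detected 8713 to 9671 probes and the homozygous arrays 7816 to 8396. On the first principal component wild type replicate 2 scored 31.1 and the 5 others -17 to 7.9. Xist was detected on wild type replicate 3 and the Y-linked Eif2s3y was not, against its male label. Lens fibre markers were detected (10 of 11, with only Gja3 detected on 0 arrays), and so were 7 of 8 lens epithelium markers (Pax6 on 0 arrays). Photoreceptor markers were also present: 10 of 11 on the array were detected on at least 1 array (Opn1sw on 0), and 10 passed the filter. Their summed normalized signal was 2310, 13500 and 3100 on wild type replicates 1, 2 and 3, and 2180, 4570 and 3620 in the homozygotes. Pigment epithelium and pigment cell markers were also highest on wild type replicate 2 (a sum of 1350, against 87.9 to 276 on the 5 others, with Tyr detected on 0 arrays). Among markers of other eye and blood cells, Laptm5 of macrophages was lower in the homozygotes (limma adjusted p = 0.0113). It was detected on 3 wild-type and 0 homozygous arrays. Laptm5 was thus tested only through the group where it was higher, and its difference and p are a description. Markers of these cells detected on 0 arrays were Ptprc, C1qa, Tyrobp and Cx3cr1 (leukocytes) and Pecam1, Cdh5 and Tek (endothelium). Krt5 and Krt14 (cornea), Myh11 (iris muscle) and Alas2 (red cells) were also detected on 0 arrays. Other markers of the same cells were present. Aldh3a1 (cornea, log2 fold change -0.52), Acta2 (iris, 0.22) and Kdr (endothelium, -0.05) were detected on 3 wild-type and 3 homozygous arrays. Hba-a1 (red cells, -2.29) was detected on 3 and 2. Cldn2 (ciliary body, -0.87), C1qb (-0.61) and Fcer1g (-0.52) were detected on 3 and 0, as Laptm5 was. None of these 7 passed (limma adjusted p = 0.123 to 0.951).

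Most FGF probes lay at or near background. Of the 17 probes, 3 were detected on all 6 arrays (1 each of Fgf1, Fgfr2 and Fgfrl1) and 8 on 0 arrays. Detections numbered 19 of 51 probe readings in the wild type and 22 of 51 in the homozygotes. The filter for testing, detection on at least 3 arrays, was passed by 8 probes of 7 genes, and the other 9 probes are given by their values alone. Fgf2 and Fgf9 had no tested probe.

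**Figure D1:**
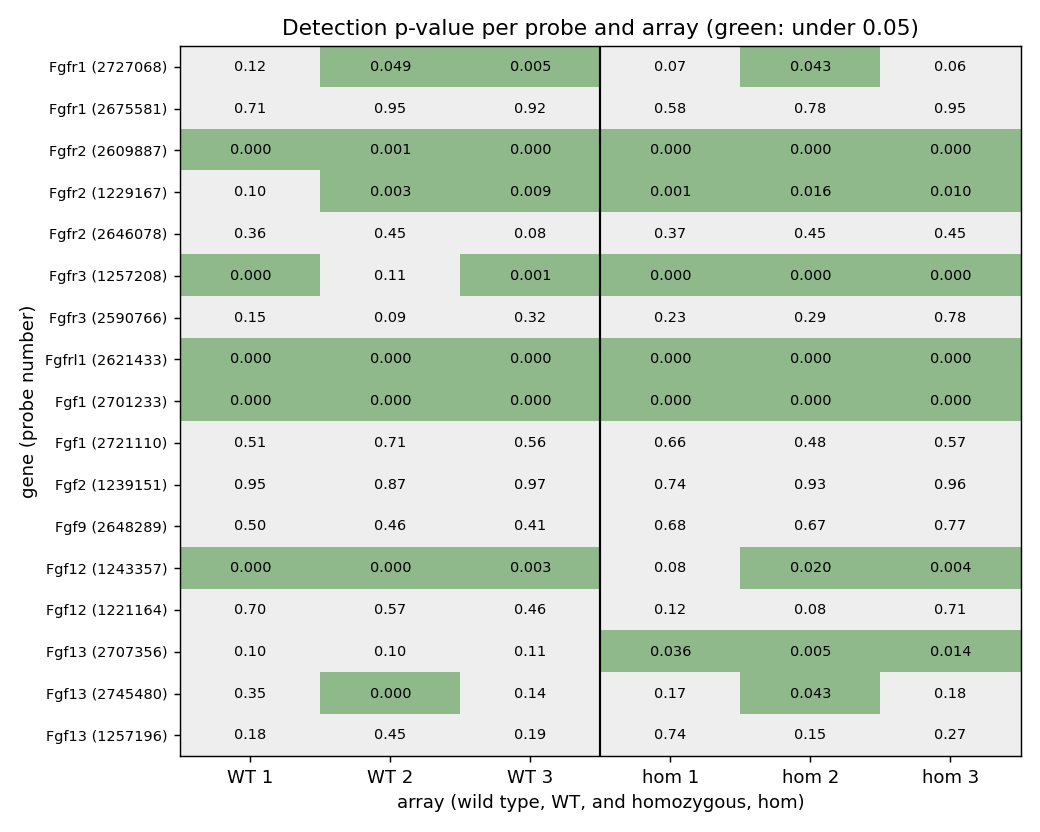
Detection p-value of each of the 17 probes (rows, gene and probe number) on each array (columns, wild type WT 1 to 3 and homozygous hom 1 to 3), with values under 0.05 in green. The probes of Fgf1, Fgfr2 and Fgfrl1 with 6 green cells are the 3 detected on every array, and the single probes of Fgf2 and Fgf9 have 0.

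No member passed the genotype comparison, which asks whether transcript levels of these genes differ in lenses that carry the altered FGF9. Of the 8 tested probes, 0 had a limma adjusted p under 0.05, where 0.406% of all 8618 tested probes did (0.139% higher and 0.267% lower in the homozygotes). At an unadjusted p under 0.05 there were 3, the probes of Fgf13, Fgf12 and Fgfr3, where 8.93% of all tested probes were. The Fgf13 probe was detected on 0 wild-type and 3 homozygous arrays and so passed the filter only through the group where it was higher, and nothing is read from that count. As a description of the probes that passed, log2 fold changes (homozygous minus wild type) were above 0 for 4 and below 0 for 4.

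**Figure D2:**
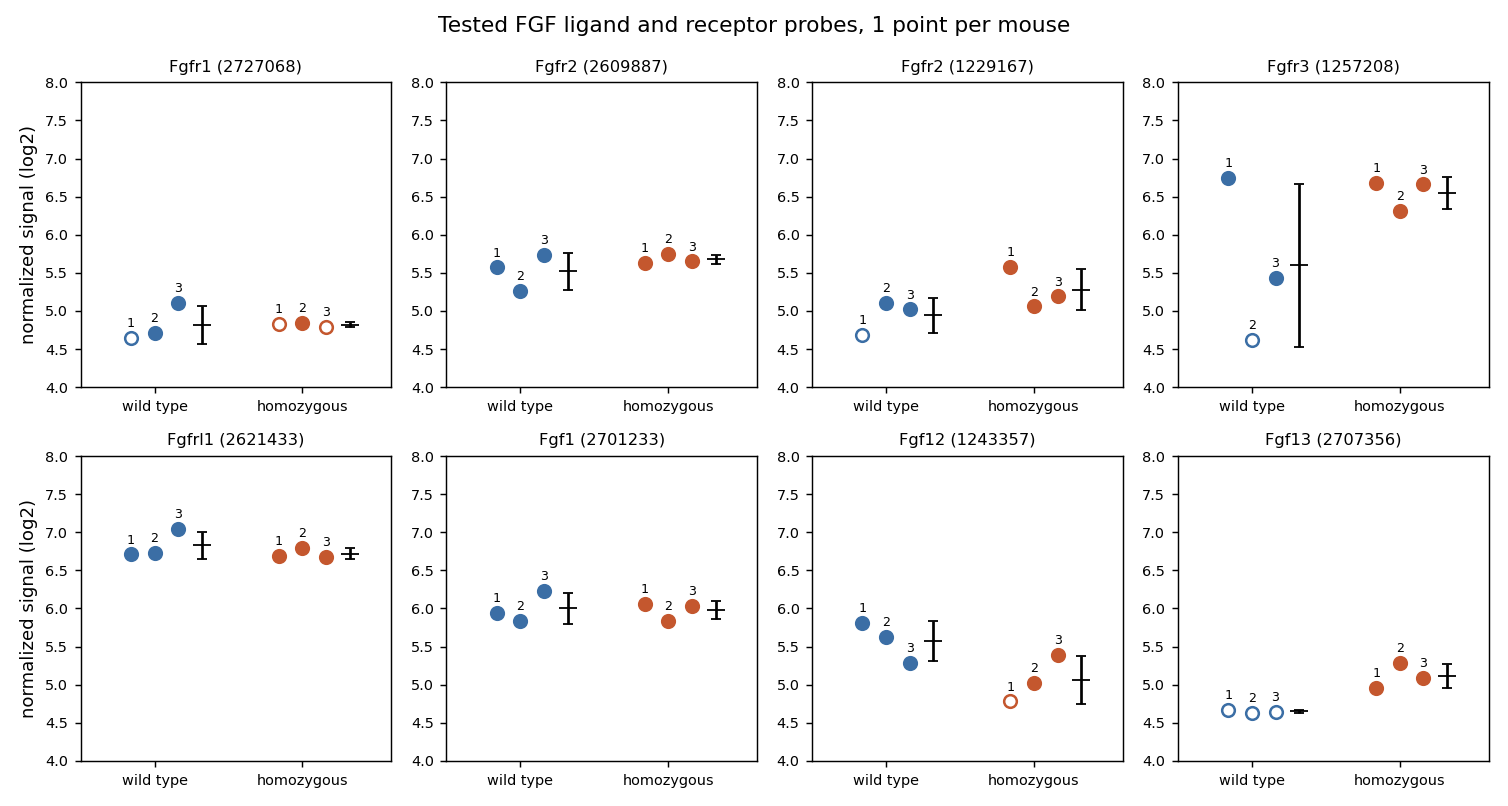
Normalized log2 signal of the 8 tested probes, 1 numbered point per mouse, filled where detected and open where not, with the group mean and SD as bars (n = 3 per group). The wild-type points of Fgfr3 spread from 4.62 to 6.75, and the Fgf13 points are the only ones among the 8 probes whose groups do not overlap, on a probe that passed the filter only through the homozygous arrays.

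Fgfr3 encodes a receptor tyrosine kinase. Its tested probe (ILMN_1257208) had deposited signals of 186.7, 94.18 and 117.3 on wild type replicates 1, 2 and 3, and of 154.2, 135.7 and 149.5 in the homozygotes. It was detected on all arrays but wild type replicate 2, where its detection p-value was 0.112. Normalized log2 signals were 6.75, 4.62 and 5.43 in the wild type and 6.68, 6.31 and 6.66 in the homozygotes. Wild type replicate 1 was thus the highest of all 6, the other wild-type arrays were the 2 lowest, and the groups overlapped. The log2 fold change was 0.95 (SE 0.40, 95% interval 0.07 to 1.83, n = 3 per group, limma adjusted p = 0.507), from 5.60 ± 1.07 to 6.55 ± 0.21 (SD). Single arrays decided this value. Without wild type replicate 1 it was 1.51 (limma adjusted p = 0.0119), and without wild type replicate 2 it was 0.45 (limma adjusted p = 0.864). A second Fgfr3 probe (ILMN_2590766) was detected on 0 arrays, with detection p-values of 0.0902 to 0.781, and shows no level to compare.

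Fgfr3 had the greatest spread over arrays of the 8 tested probes (SD 0.87 on the log2 scale). The array on which it was lowest, wild type replicate 2, held the highest summed photoreceptor signal, and wild type replicate 1 and homozygous replicate 1, where it was highest, held the 2 lowest. The remaining arrays did not keep that order. Wild type replicate 3, with Fgfr3 at 5.43, held a sum of 3100. Homozygous replicates 2 and 3, with Fgfr3 at 6.31 and 6.66, held higher sums of 4570 and 3620. Lens epithelium markers, with 6 tested members all at log2 fold changes above 0 and Aqp1 passing (1.30, limma adjusted p = 0.00343), deviated from their 6-array mean by 0, -0.26 and -0.37 on average in the wild type and by 0.29, 0.19 and 0.16 in the homozygotes. Their summed signal was 8530 to 10200 in the wild type and 11700 to 12400 in the homozygotes. The part of either marker group in the Fgfr3 values was not tested.

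**Figure D3:**
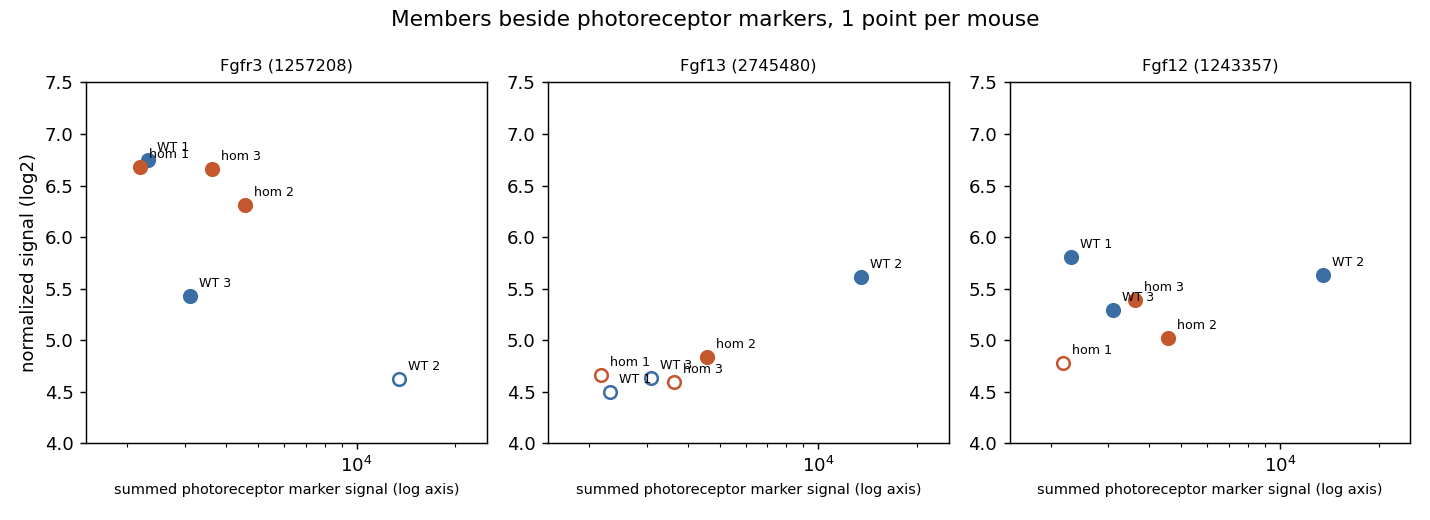
Normalized log2 signal of 3 FGF probes (y) against the summed normalized signal of 10 photoreceptor markers on a log axis (x), 1 point per mouse, wild type (WT) in blue and homozygous (hom) in orange, open where not detected. Wild type replicate 2 lies far to the right at 13500, where Fgfr3 is at its lowest (4.62) and the Fgf13 probe ILMN_2745480 at its highest (5.61).

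The 5 genes whose values followed Fgfr3 most closely over the 6 arrays were Pgm5 (Pearson r = 0.996), Dynll2 (r = 0.993), Rbfa (r = 0.993), Dpagt1 (r = 0.991) and Nnat (r = 0.990). These are the top of 6429 genes compared over only 6 arrays, of which 66 had an r above 0.95. All 5 were lowest on wild type replicate 2. Dynll2, a dynein light chain, had log2 signals of 8.97, 5.97 and 7.20 in the wild type and 8.58, 8.31 and 8.54 in the homozygotes. Nnat, neuronatin, had 7.55, 4.68 and 6.15, and 7.74, 7.10 and 7.81. None of the 5 passed (limma adjusted p = 0.429 to 0.83).

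Fgfr2, another receptor tyrosine kinase, had 3 probes. The brightest (ILMN_2609887) was detected on all 6 arrays, with log2 signals of 5.57, 5.26 and 5.74 in the wild type and 5.63, 5.75 and 5.65 in the homozygotes. The groups overlapped, with wild type replicate 2 the lowest. The log2 fold change was 0.16 (SE 0.19, 95% interval -0.25 to 0.56, limma adjusted p = 0.833). That value was 0.02 without wild type replicate 2 and 0.26 without wild type replicate 3. The second tested probe (ILMN_1229167), annotated to a different RefSeq transcript of the gene, was detected on all arrays but wild type replicate 1. Its log2 signals were 4.68, 5.11 and 5.02, and 5.58, 5.06 and 5.19, and its log2 fold change was 0.34 (SE 0.20, 95% interval -0.09 to 0.77, limma adjusted p = 0.637). Leaving out 1 array at a time gave 0.20 (without homozygous replicate 1) to 0.46 (without homozygous replicate 2). Both tested probes had values above 0 without passing. The third (ILMN_2646078) was detected on 0 arrays, with deposited signals of 80.48 to 95.4.

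Fgfr1, the remaining kinase receptor measured above the filter, was seen barely above background. Its tested probe (ILMN_2727068) had detection p-values of 0.124, 0.0489 and 0.00501 in the wild type and 0.0652, 0.0426 and 0.0589 in the homozygotes. Log2 signals were 4.65, 4.71 and 5.11, and 4.83, 4.84 and 4.79. The homozygous arrays agreed closely with each other and lay inside the wild-type range. The log2 fold change was -0.002 (SE 0.17, 95% interval -0.37 to 0.36, limma adjusted p = 0.998). With 1 array left out the probe stayed in the filter in only 3 of 6 fits. The other Fgfr1 probe (ILMN_2675581) was detected on 0 arrays.

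Fgfrl1 encodes a receptor that binds FGFs but lacks the intracellular kinase domain. Its single probe (ILMN_2621433) was detected on all 6 arrays, with deposited signals of 183.1, 206.7 and 217.6 in the wild type and 154.9, 163.8 and 150.6 in the homozygotes. As deposited, the homozygous signals were all lower. After normalization the log2 signals were 6.71, 6.73 and 7.04, and 6.69, 6.80 and 6.68, and the groups overlapped. The log2 fold change was -0.10 (SE 0.16, 95% interval -0.46 to 0.25, limma adjusted p = 0.882).

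Fgf1, which encodes a ligand that can bind all the kinase receptors and lacks a classical signal peptide, was the one receptor-binding ligand with a tested probe. Its probe ILMN_2701233 was detected on all 6 arrays, with deposited signals of 134.4, 142.7 and 152.5 in the wild type and 126.8, 116.9 and 120.5 in the homozygotes. Here too the deposited signals separated the groups. The normalized log2 signals, 5.94, 5.84 and 6.23 against 6.06, 5.84 and 6.03, did not. The log2 fold change was -0.02 (SE 0.18, 95% interval -0.42 to 0.38, limma adjusted p = 0.984). As folds of the normalized signal the interval ran from 0.75 to 1.30. The offset shrinks such folds and normalization removes a shared change, so the interval does not bound the change in transcript. A second Fgf1 probe (ILMN_2721110) was detected on 0 arrays, at detection p-values of 0.48 to 0.708.

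**Figure D4:**
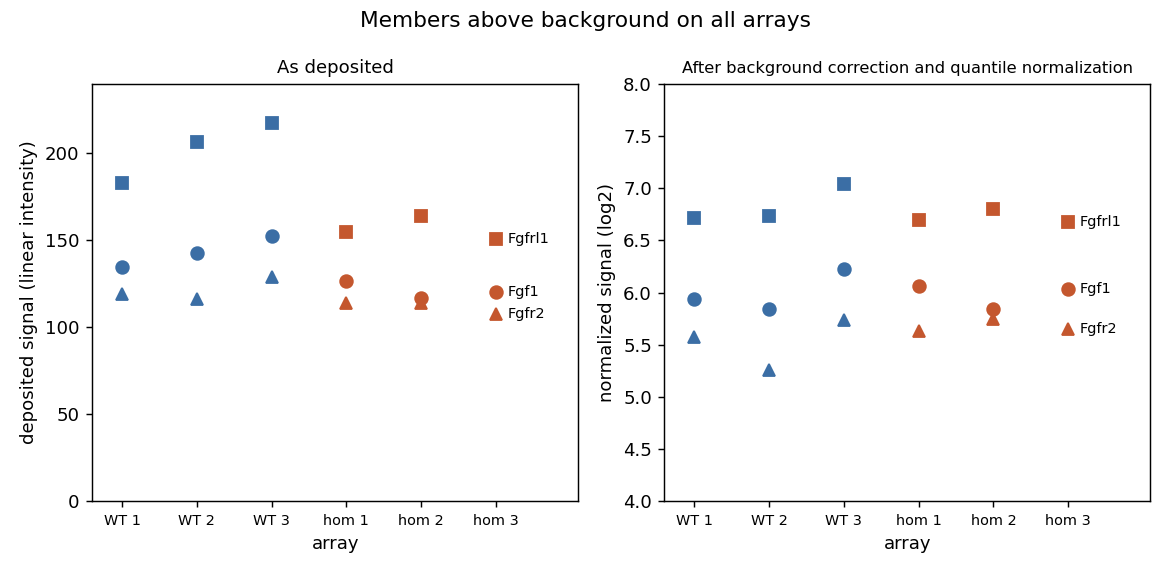
Fgf1, Fgfrl1 and Fgfr2 (ILMN_2609887) on each array (x), as deposited on a linear intensity scale (left) and after background correction and quantile normalization on a log2 scale (right), wild type in blue and homozygous in orange. Within each gene the 3 homozygous points lie below the wild-type points on the left (for Fgf1, 116.9 to 126.8 against 134.4 to 152.5) and overlap them on the right; levels are not comparable between probes.

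The lower deposited signal was general. Of all tested probes 51.9% had every homozygous signal below every wild-type signal before normalization, and 0.22% had every one above. Among the 8 tested FGF probes the counts were 4 lower (Fgf1, Fgf12, Fgfrl1 and Fgfr2 ILMN_2609887) and 1 higher (Fgf13 ILMN_2707356). After normalization, 7.47% of all tested probes were separated with the homozygotes lower and 7.31% with them higher. Among the FGF probes 0 were separated downward and 1 upward. The 1 upward, on both scales, passed the filter only through the group where it was high and is not set against these shares.

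That probe was of Fgf13, a homologous factor with known roles in neurons. ILMN_2707356 had deposited signals of 94.3, 94.53 and 94.08 in the wild type and 100.3, 101.4 and 94.78 in the homozygotes. Its detection p-values were 0.102, 0.103 and 0.114, and 0.0363, 0.00501 and 0.0138, so all 3 homozygous arrays and 0 of the wild-type arrays detected it. Log2 signals were 4.67, 4.63 and 4.64, and 4.96, 5.28 and 5.09. Its separation was also present in the deposited signals and in the authors' processed intensities as deposited (6.42 to 7.52 against 15.6 to 25.2). With processed values set to 16 where lower, as in the alternative fit below, the groups were no longer separated. The wild type gives only a bound. With its values raised to the lowest detected value of each array, the homozygous mean lay 1.29-fold above the wild-type mean. That figure carries no sampling error. Measured means were 4.65 ± 0.02 and 5.11 ± 0.16 (SD, n = 3 per group, limma adjusted p = 0.389), and the probe did not pass. As the probe entered the test only through the homozygous arrays, its difference and p are a description.

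The other Fgf13 probes did not follow it. ILMN_2745480 had log2 signals of 4.50, 5.61 and 4.63 in the wild type and 4.66, 4.84 and 4.60 in the homozygotes. It was detected on wild type replicate 2 (above every negative control) and homozygous replicate 2 (a detection p-value of 0.0426), the 2 arrays with the highest summed photoreceptor signal, and the part of those cells in its signal was not tested. ILMN_1257196 was detected on 0 arrays, at detection p-values of 0.148 to 0.739. All 3 are annotated to the same RefSeq transcript.

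Fgf12, the other homologous factor, had its tested probe (ILMN_1243357) detected on all arrays but homozygous replicate 1. Deposited signals were 128.9, 132.6 and 112.9 in the wild type and 97.28, 95.82 and 101 in the homozygotes. Log2 signals were 5.81, 5.63 and 5.29, and 4.78, 5.02 and 5.39, so homozygous replicate 3 lay just above wild type replicate 3 and the groups overlapped. The log2 fold change was -0.51 (SE 0.21, 95% interval -0.97 to -0.05, limma adjusted p = 0.491). A second probe (ILMN_1221164), annotated to another transcript, was detected on 0 arrays, with the higher signals on homozygous replicates 1 and 2 (95.95 and 89.58).

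Inner retina and Müller glia markers were also lower in the homozygotes. Of 5 tested, Calb2, Slc1a3, Sncg and Slc17a6 passed at lower values and Thy1 had a log2 fold change of -1.44 without passing (limma adjusted p = 0.0579). All 5 were detected on 3 wild-type arrays, but Slc17a6 on 0 homozygous arrays and the others on 1. They met the filter through the wild-type arrays, where they were higher, so these differences are a description. Their summed signal was 293 to 535 in the wild type and 45.2 to 70.4 in the homozygotes, with Nefl, Snap25 and Glul detected on 0 arrays. In the wild type the sum was lowest, 293, on replicate 1, where Fgf12 was highest. In the homozygotes it was 46.9, 70.4 and 45.2 on replicates 1, 2 and 3. Each of these markers was detected on 0 or 1 homozygous arrays, so the order there is not read. The part of these cells in the Fgf12 values was not tested. Of the sodium channel genes and the scaffold gene listed as partners of the homologous factors, 6 of 11 were on the array (Scn1a, Scn8a, Scn2b, Scn3b, Scn4b and Mapk8ip2) and 0 were detected on any array.

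**Figure D5:**
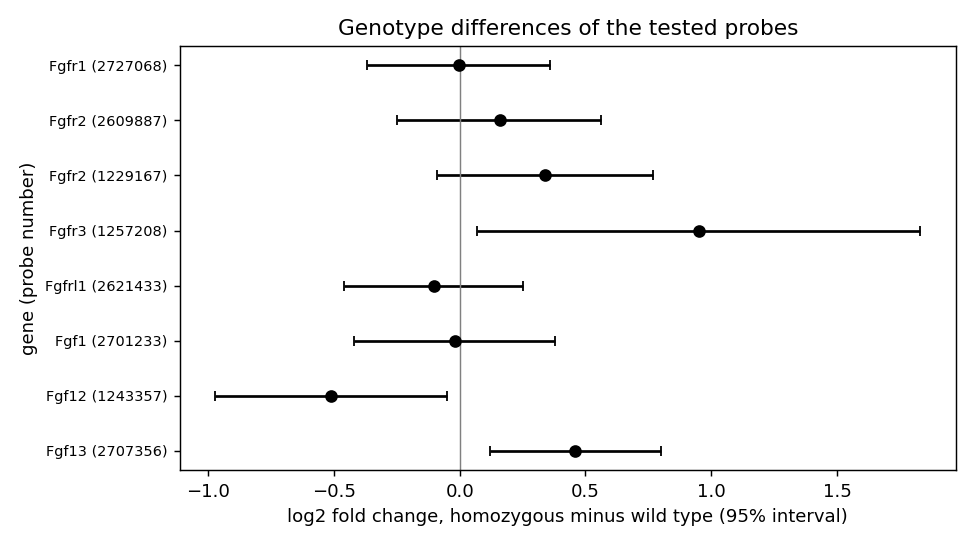
Log2 fold change, homozygous minus wild type, of the 8 tested probes (points) with the 95% interval of the limma fit (bars, n = 3 per group). The intervals of Fgfr3 (0.07 to 1.83), Fgf12 (-0.97 to -0.05) and Fgf13 (0.12 to 0.80) leave out 0 before adjustment over all probes, and 0 of the 8 pass after it; the Fgf13 point is a fitted value against a group below background, on a probe tested only through the homozygous arrays.

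Fgf9, the gene that carries the substitution, had 1 probe (ILMN_2648289), which was detected on 0 arrays. Its detection p-values were 0.496, 0.461 and 0.406 in the wild type and 0.677, 0.668 and 0.769 in the homozygotes, and its deposited signals were 85.79, 86.81 and 87.73, and 83.87, 78.76 and 74.85. The normalized log2 signals, 4.42, 4.43 and 4.46 against 4.36, 4.37 and 4.33, did not overlap, with the homozygotes lower. Of the 13277 probes detected on 0 arrays, 4.36% also showed this, and 10.2% were separated in either direction. Both groups lay within the range of negative controls, so no fold is given, and Fgf9 transcript was not detectable on these arrays. A substitution leaves the transcript in place, so this probe does not check the genotype labels. Fgf2, a ligand stored in basement membranes on heparan sulphate, was likewise detected on 0 arrays by its 1 probe (ILMN_1239151, detection p-values 0.738 to 0.972).

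The rest of the FGF family did not meet the filter for testing. Of 31 listed ligands, homologous factors, receptors, co-receptors and binding proteins, all 31 had a probe, and 7 were detected on at least 3 arrays, all of them members described above. The members were chosen with earlier results of these data known, so nothing is read from that. Of the other 22, 15 were detected on 0 arrays, among them Fgf7, Fgf8, Fgf10, Fgfr4 and the co-receptor gene Klb. The remaining 7 (Fgf14, Fgf15, Fgf17, Fgf21, Fgf22, Kl and Fgfbp3) were detected on 1 array each by their best probe.

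Each gene that carries the signal on from the receptors was counted by 1 probe. Of those tested, 0 passed in limma, where 0.406% of all tested probes did. At an unadjusted p under 0.05 there were 0 among the adaptors, 0 in the RAS to ERK cascade and 0 in the PI3 kinase list. There were 2 of 8 among ERK targets and 1 of 13 among heparan sulphate genes, where 8.93% of all tested probes were. Docking proteins and adaptors had 5 tested of 12 listed (9 with a probe on the array), 0 up and 0 down, with a median log2 fold change of 0.18. Those of smallest p were Gab1, a docking protein of the PI3 kinase branch (0.30, SE 0.16), and Ptpn11, the phosphatase SHP2 (0.24, SE 0.13), at limma adjusted p-values of 0.611 and 0.621. Frs3, the relative of Frs2, was detected on 0 arrays, as were Cbl and Plcg1. The RAS to ERK cascade had 4 tested of 14 listed symbols (7 with a probe on the array), 0 passing, with a median of 0.07. Rasa1, a GTPase-activating protein that turns RAS off, lay at -0.35 and the kinase gene Map2k2 at 0.24 (limma adjusted p = 0.592 and 0.674). The probes of the kinase gene Araf disagreed. The counted one lay at 0.05 (ILMN_2914271, limma adjusted p = 0.944) and the other, dimmer one at -0.54 (ILMN_1237241, SE 0.18, unadjusted p = 0.00942, limma adjusted p = 0.355). PI3 kinase and AKT genes had 4 tested of 9 (7 with a probe on the array), 0 passing, with a median of 0.02. The regulatory subunit genes Pik3r1 and Pik3r2 lay at 0.20 and -0.04 (limma adjusted p = 0.788 and 0.973).

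Genes that answer ERK activity had 8 tested of 20 listed (19 with a probe on the array), 0 passing, with 6 below 0 and 2 above and a median of -0.19. Of all tested probes 49.5% lay below 0. Etv5, at -0.28, was detected on 3 wild-type and 1 homozygous arrays. It met the filter through the group where it was higher, so the count and median are a description. Spred1, an inhibitor of RAS signalling, went from 5.70 ± 0.16 to 5.18 ± 0.14 (SD, n = 3 per group; log2 fold change -0.51, SE 0.18, limma adjusted p = 0.404) without overlap between groups. Ier3, an immediate early gene, had a log2 fold change of -0.82 (SE 0.32, limma adjusted p = 0.449). The Sprouty genes Spry1, Spry2 and Spry4, feedback inhibitors of the receptors, were detected on 0 arrays. Heparan sulphate genes had 13 tested of 22 (19 with a probe on the array), 0 passing, with a median of 0.15. Agrn, which encodes agrin of the basement membrane, went from 6.30 ± 0.11 to 5.55 ± 0.18 (SD, n = 3 per group; log2 fold change -0.75, SE 0.18, limma adjusted p = 0.152). Sulf1, a sulphatase gene, was at 0.35 (limma adjusted p = 0.606). The median over all 6430 tested genes was 0.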

How the data were processed

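Lens RNA of 6 mice was hybridised to Illumina arrays. The authors' deposited signal is a linear intensity per probe, neither background-subtracted nor normalized, with a detection p-value beside it per the file headers, in steps of 1 in 798. A second deposited table holds the authors' processed intensity, made by a method not stated here. Per the submitters' processing notes, GenomeStudio 2011.1 was used. Signals were corrected with limma 3.58.1 (R 4.3.3) by the normal-exponential method with controls inferred from detection p-values, an offset of 16, quantile normalization and log2. The offset shrinks fold changes of dim probes, and quantile normalization removes a change shared by most transcripts.

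Probes with detection p under 0.05 on at least 3 arrays (8618) were fitted with lmFit and eBayes, with an intensity trend and genotype as the only term. P-values are two-sided, with Benjamini-Hochberg adjustment across every tested probe. For a bound, the mean of the undetected group is raised, array by array, to the lowest value any detected probe had there. In lists, the probe of highest mean represents a gene. Summed marker signals are linear normalized values less the offset.

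Symbols come from the platform annotation, and 9 of 10 members matched RefSeq GRCm38.p6 by gene identifier. All members are named, and of each list the members that pass or else the 2 of smallest p; others were chosen after their values were seen. Members and lists were chosen with earlier results of these data known. On simulated data of 8618 probes with 200 changed, the fit recovered 74% of changes of 1 and 99% of changes of 2 on the log2 scale. Of its calls 6.49% were false. The changes were added to normalized log2 values with independent noise, so the shrinking of dim probes was not simulated. These shares are over all tested probes and cannot be carried over to FGF probes near background. Each mouse is 1 sample, and the number of arrays limits the precision.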

Additional observations from a re-analysis of the deposited data

How the results depend on the processing

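Of 17 alternatives, 16 left 0 FGF members called by limma. Without wild type replicate 1 the count was 1, since Fgfr3 passed at a log2 fold change of 1.51, and the FGF family list then also held 1; leaving out 1 array gave 0 to 1 for both. The ERK target list held 1 with the replicate number as a block (replicate block), the gene being Ier3. The labels do not say whether replicate numbers pair the mice, and 3 arrays per group cannot decide it. Deviations of same-numbered arrays correlated at 0.20, 0.19 and -0.03, and 2 of 3 wild-type arrays deviated most like their own number. The block moved the calls over all probes from 35 to 125. In that fit 0 members were called, with Fgfr3 at an adjusted p of 0.0822. The member probes with groups that did not overlap numbered 1 (14.8% of all tested probes did the same), then 2 with median centring (21%), 0 with the authors' processed values (set to 16 where lower; 13.1%), 0 at a detection p under 0.01, where Fgf13 left the filter (15.2%), and 0 to 3 with 1 array left out (21.8 to 31.3%). Fgf1, at -0.02, turned to 0.02 with median centring, 0.01 with sex as a covariate and lay at -0.10 to 0.10 with 1 array left out. Fgfr1, at -0.002, turned to 0.003 with no background correction, 0.32 with median centring, which moved the median of all probes to 0.10, 0.03 with sex as a covariate, and lay at -0.09 to 0.01 in the 3 of 6 fits with 1 array left out that kept it in the filter; without wild type replicate 2 or 3 or homozygous replicate 2 it has no value. Fgfrl1 turned to 0.003 without wild type replicate 3 (range -0.16 to 0.003). The cause of these turns was not tested. The sex covariate used the labelled sex, which the sex-linked genes of wild type replicate 3 went against. Fgfr3, Fgf13, both Fgfr2 probes and Fgf12 kept their direction in every alternative that tested them, with Fgfr3 at 0.42 to 1.51, Fgf13 at 0.17 to 0.75 (with 1 array left out, tested only in the 3 fits that left out a wild-type array), Fgfr2 ILMN_2609887 at 0.02 to 0.26, Fgfr2 ILMN_1229167 at 0.12 to 0.51 and Fgf12 at -0.79 to -0.19. Of the 5 genes most like Fgfr3, 1 remained among the top 5 without wild type replicate 2 and 1 without wild type replicate 3. Calls over all probes numbered 22 without background correction, 20 with no intensity trend, 23 at an offset of 50, 69 with array weights, 22 with sex as a covariate, 0 with the authors' processed values (748 at an unadjusted p under 0.05, limma) and 12 to 98 with 1 array left out. A slide block was not run, since no slide was read from the files.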
